A study of Mus musculus with 6 samples.

Results

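Immediate-early response genes are the genes that a cell switches on within minutes of a stimulus, before any new protein is made. The set described here holds 10 of them, Fos, Fosb, Jun, Junb, Egr1, Atf3, Ier2, Dusp1, Zfp36 and Nr4a1, chosen by name and found by their Ensembl identifiers among the 51826 genes of each count table. They were measured by bulk RNA sequencing of whole testis from C57BL/6J mice aged 8 weeks, in 3 KIFC1 knockout and 3 wild-type samples. KIFC1 is a kinesin motor that moves towards microtubule minus ends, and the title of the series places it in meiotic recombination and male fertility. The labels name no allele, no Cre driver and no treatment, and nothing in them ties the samples to different mice. The p-values below therefore describe sample-to-sample spread only, part of which may be technical.

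Growth factors, hormones, membrane depolarisation and stress reach these genes through the MAP kinases, the transcription factor CREB and the serum response factor SRF, which act at their promoters. Many of the products are transcription factors. FOS and JUN proteins pair as AP-1, EGR1 is a zinc-finger protein, and NR4A1 is an orphan nuclear receptor that takes part in hormone-driven steroid production in Leydig cells. Others shut the response down, such as the MAP kinase phosphatase DUSP1 and the RNA-binding protein ZFP36, which hastens the decay of mRNAs with AU-rich ends. The same genes are known to respond to tissue handling, so their levels can also carry a trace of how a sample was collected.

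Sequence features shared by the members were read from reference sequence and not from the libraries. The windows of 4 members are printed because they span the range of levels seen below. Nr4a1 and Dusp1 had the highest levels per length, and Fos was close to the limit of detection. Zfp36 held the single CArG box, the site that SRF binds, in the 8 windows searched. Each window runs from 250 bases before to 50 bases after the start site (RefSeq, GRCm38.p6), 5′ to 3′ on the gene's strand. Capitals mark matches to the CREB site TGACGTCA, to its core TGACG on either strand, to TATAAA and to the CArG box.

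Nr4a1 promoter (chr15:101266596-101266895, plus strand): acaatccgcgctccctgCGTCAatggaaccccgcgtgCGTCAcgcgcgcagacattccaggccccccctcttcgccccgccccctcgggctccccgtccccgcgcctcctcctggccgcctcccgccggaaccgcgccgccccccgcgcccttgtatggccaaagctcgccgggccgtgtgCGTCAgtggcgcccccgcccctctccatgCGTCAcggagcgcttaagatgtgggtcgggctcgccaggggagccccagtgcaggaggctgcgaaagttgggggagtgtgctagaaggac
Dusp1 promoter (chr17:26508423-26508722, minus strand): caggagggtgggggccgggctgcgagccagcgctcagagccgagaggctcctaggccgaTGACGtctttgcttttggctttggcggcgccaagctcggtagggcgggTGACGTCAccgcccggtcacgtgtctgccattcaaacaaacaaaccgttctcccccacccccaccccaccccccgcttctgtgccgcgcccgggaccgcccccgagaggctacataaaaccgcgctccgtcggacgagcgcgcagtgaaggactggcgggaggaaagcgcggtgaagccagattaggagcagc
Zfp36 promoter (chr7:28379179-28379478, minus strand): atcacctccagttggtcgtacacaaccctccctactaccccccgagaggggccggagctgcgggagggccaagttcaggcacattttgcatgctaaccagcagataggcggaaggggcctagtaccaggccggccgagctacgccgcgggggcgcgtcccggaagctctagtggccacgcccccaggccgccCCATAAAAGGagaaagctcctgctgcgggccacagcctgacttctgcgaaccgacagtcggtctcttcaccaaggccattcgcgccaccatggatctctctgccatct
Fos promoter (chr12:85473640-85473939, plus strand): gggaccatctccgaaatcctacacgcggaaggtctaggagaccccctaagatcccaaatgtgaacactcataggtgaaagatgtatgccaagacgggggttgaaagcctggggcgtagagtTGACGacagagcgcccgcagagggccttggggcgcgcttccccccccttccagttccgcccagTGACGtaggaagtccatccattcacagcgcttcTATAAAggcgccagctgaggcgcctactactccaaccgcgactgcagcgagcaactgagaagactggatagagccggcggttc

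The core TGACG was found in 6 of 8 member windows, against 20.8% of 32851 promoter windows of the same length. In Nr4a1 it occurred at 4 places, all on the opposite strand. The full site TGACGTCA, which contains the core on both strands, was in 1 of the 8 windows, that of Dusp1, and in 1.79% of all windows. A CArG box was found in 1 of 8, Zfp36, at bases -58 to -49 from the start site, against 1.63% of all windows. TATAAA stood in 2 of 8, Fos at bases -33 to -28 and Junb at the start site, against 13.6%, and the GC box GGGCGG in 7 of 8, against 35.7%. The AP-1 site TGANTCA was in 0 of 8 windows and 7.81% of all. All motifs were searched on both strands, and a match is a run of letters, not a shown binding site. Of the 10 members, 8 had a window, and Egr1 and Ier2 had none. Sites more than 250 bases before the start site were not searched, so the counts cover these windows only.

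The ends of the transcripts were searched for TATTTAT, the heptamer at the heart of the AU-rich elements that ZFP36 binds. It stood in the 3′ untranslated region of 6 of the 10 members. The last 300 bases of the longest protein-coding transcript held it in 5 of 10 members, against 9.07% of 16236 tested protein-coding genes. Zfp36 itself carried 3 copies in its 3′ untranslated region, as did Dusp1, and Fos carried 2. Stretches of 30 bases around the copy nearest to the transcript end are shown for the 6 members, with the heptamer in capitals (GENCODE M21, GRCm38).

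Fos AU-rich site (chr12:85477127-85477156, plus strand): ggattctcagaTATTTATatttttatttta
Fosb AU-rich site (chr7:19303325-19303354, minus strand): ccacccccagcTATTTATccctttcctggt
Jun AU-rich site (chr4:95049078-95049107, minus strand): ttgcttgtgcaTATTTATaatagcgttcgt
Atf3 AU-rich site (chr1:191170337-191170366, minus strand): aaaatattactTATTTATcccagtattcct
Dusp1 AU-rich site (chr17:26505673-26505702, minus strand): gtatgtttgttTATTTATgatctgaagtaa
Zfp36 AU-rich site (chr7:28376925-28376954, minus strand): agattttatagTATTTATatatattgggtc

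Junb, Egr1, Ier2 and Nr4a1 had 0 copies of this heptamer in their 3′ untranslated regions, which were 485, 1216, 755 and 543 bases long.

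Library totals ran from 32129093 to 38169198 counts in knockout and from 29274603 to 38703606 counts in wild type. Values below are counts per 1000000 counts after TMM scaling (CPM), and 3 counts, taken as the floor of detection, were worth between 0.0763 and 0.0986 CPM, a limit that covers counting error only. Kifc1, the targeted gene, stood at 0.326, 0.737 and 0.282 CPM in knockout replicates 1, 2 and 3, against 15.5, 16.1 and 14.7 CPM in wild type (log2 fold change -5.09, SE 0.35, edgeR adjusted p = 0.00378). Knockout replicate 2 stood apart from the other knockout libraries. Mitochondrial genes held 5.74%, 1.54% and 4.29% of counts in knockout replicates 1, 2 and 3, against 0.661% to 0.935% in wild type. The deviation of each library from the mean of all libraries followed GC content across 12751 genes, with a Spearman rho of -0.26, -0.67 and -0.12 in knockout replicates 1, 2 and 3, against 0.24, 0.52 and 0.53 in wild type. These rho values run across genes, which are not independent replicates, and each library shares its depth and base composition among all of them. Results of members that rest on knockout replicate 2 are therefore given with and without it, and after removal of every library's own trends with GC and exon length. The rho values were below 0 in every knockout library and above 0 in every wild-type library. Removing the trends can therefore also remove part of a true difference between the genotypes. A technical trend and such a difference cannot be told apart here. In whole tissue, fewer cells of a type and less RNA per cell cannot be told apart.

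Summed, the 10 mRNAs were a small part of the testis transcriptome. Their summed level was 141.1, 57.4 and 141.3 CPM in knockout replicates 1, 2 and 3, against 78.6, 93.2 and 96.2 CPM in wild-type replicates 1, 2 and 3. The wild-type libraries lay between knockout replicate 2 and the other pair of knockout libraries. Nr4a1 alone supplied 52.5% of the summed level over the knockout libraries and 48.1% over the wild-type libraries. Fos, Fosb and Atf3 supplied 0.178%, 0.723% and 0.142% in knockout, against 0.376%, 1.37% and 0.101% in wild type.

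Ordered by CPM per 1000 exon bases, which allows levels of different genes to be compared, Nr4a1 came first in both groups, at 16.9 ± 8.87 in knockout and 12.3 ± 1.55 in wild type (SD, n = 3 each). Its libraries did not overlap those of the next gene, Dusp1, at 4.30 ± 1.46 in knockout and 3.26 ± 0.229 in wild type. Dusp1, Jun, Egr1, Ier2, Junb and Zfp36 followed in knockout, each overlapping its neighbour in that order. In wild type the order was Dusp1, Ier2, Jun and Junb, with overlapping neighbours, and then Zfp36 and Egr1, which overlapped each other and lay below Junb. Fosb, Fos and Atf3 came last in both groups, at 0.131, 0.0857 and 0.0748 CPM per 1000 bases in knockout and 0.196, 0.143 and 0.0418 in wild type. Fosb lay apart from the genes above it in each group. Fos and Atf3 overlapped in knockout but not in wild type. There the lowest Fos library had 7 counts and the highest Atf3 library 6, too few to set their order.

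**Figure D1:**
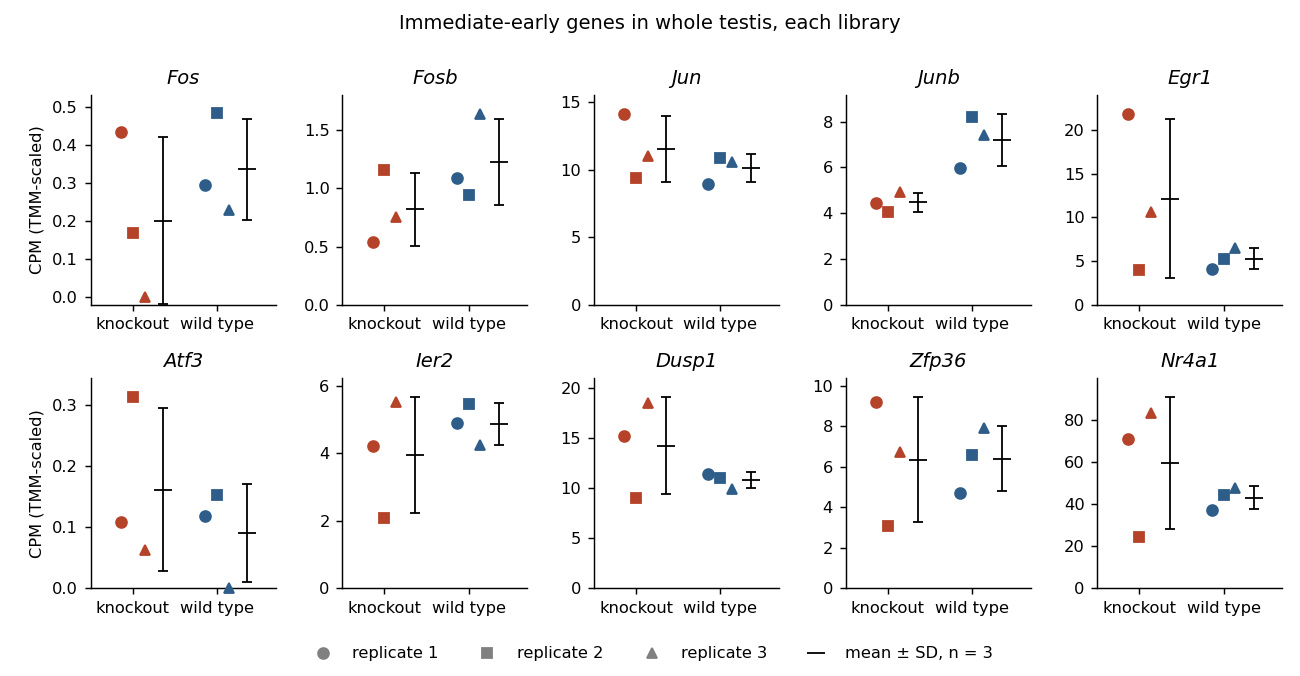
Level of each of the 10 genes in each library, in CPM after TMM scaling (y axis, from 0 except where an error bar passes below it), with knockout libraries on the left and wild-type libraries on the right of each panel. Marker shapes give the replicate number, which no label says pairs the samples, and bars the mean ± SD of 3 libraries. Junb is the single gene whose groups do not overlap. Of the 8 tested genes, Jun, Egr1, Ier2, Dusp1, Zfp36 and Nr4a1 have a larger SD of CPM in knockout than in wild type.

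No member passed the test for a difference between the genotypes. The filter on low counts left 8 of the 10 for testing, and Fos and Atf3 fell out. At a Benjamini-Hochberg adjusted p under 0.05 (edgeR quasi-likelihood test over 21518 genes), 0 of 8 were higher and 0 lower in knockout, where 8.23% of all tested genes were called, 3.11% higher and 5.12% lower. At an unadjusted p under 0.05 there were 2 of 8 members, Egr1 higher and Junb lower, where 27.1% of all tested genes passed. The DESeq2 Wald test called the same 2 members, and 18.3% of the genes it tested. The median log2 fold change, knockout over wild type, was 0.09 over the 8 genes and -0.01 over all tested genes. Of the 8, 4 had a positive and 4 a negative value.

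Among the AP-1 subunits, mRNA of Fos (chromosome 12, 85473890 to 85477273, plus strand, GRCm38) was hardly present. It gave 16, 6 and 0 counts in knockout replicates 1, 2 and 3, against 10, 19 and 7 in wild type, which is 0.435, 0.170 and 0 CPM in knockout and 0.294, 0.484 and 0.230 CPM in wild type. The groups overlapped, and the 0 counts of knockout replicate 3 allow up to 0.0939 CPM. Atf3 (chromosome 1, 191170296 to 191218039, minus strand), a stress-induced partner and repressor of the same family, gave 4, 11 and 2 counts in knockout, against 4, 6 and 0 in wild type. At these counts no difference in Fos or Atf3 was detectable. Fosb (chromosome 7, 19302696 to 19310051, minus strand), the closest relative of Fos, stood at 0.543, 1.16 and 0.751 CPM in knockout, against 1.09, 0.942 and 1.64 CPM in wild type (log2 fold change -0.57, SE 0.40, edgeR adjusted p = 0.393). Its groups also overlapped.

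The Jun proteins are the obligate partners of FOS. Jun, a gene with a single exon (chromosome 4, 95049034 to 95052222, minus strand), stood at 14.2, 9.39 and 11.04 CPM in knockout replicates 1, 2 and 3, against 8.95, 10.9 and 10.6 CPM in wild type, a narrow range in which the groups overlapped (log2 fold change 0.19, SE 0.21, edgeR adjusted p = 0.607). Junb was the one member whose groups did not overlap, with 4.46, 4.05 and 4.91 CPM in knockout, against 5.96, 8.22 and 7.43 CPM in wild type. All 3 knockout libraries lay below all 3 wild-type libraries, as they did for 18.1% of tested genes, while 14.6% of tested genes lay wholly above. The fitted log2 fold change of Junb was -0.69 (SE 0.22, edgeR adjusted p = 0.0836), and -0.07 (SE 0.20, edgeR adjusted p = 0.869) with the GC and length trends removed. With a GC content of 62.6%, Junb was the most GC-rich of the 10 genes. Junb (chromosome 8, 84974484 to 84978718, minus strand, GRCm38) overlaps exons of Prdx2 on the other strand, and the strand setting of the counting is not given in the sources used here, so reads of the pair cannot be told apart. The same limit holds for Jun with Junos, for Dusp1 with Ergic1 and for Zfp36 with Gm44710.

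Egr1 had the largest log2 fold change of the 8 tested members in either direction. The gene lies on chromosome 18 at 34859823 to 34864984, plus strand. It stood at 21.9, 3.94 and 10.6 CPM in knockout replicates 1, 2 and 3, against 4.11, 5.27 and 6.47 CPM in wild type. Knockout replicates 1 and 3 were above all wild-type libraries and knockout replicate 2 below all of them. Among the knockout libraries the highest value was 5.55 times the lowest, against 1.58 times among the wild-type libraries. The log2 fold change was 1.20 (SE 0.51, edgeR adjusted p = 0.172) with all libraries, 1.62 (edgeR adjusted p = 0.0212) without knockout replicate 2 and 0.46 (edgeR adjusted p = 0.594) without knockout replicate 1. Leaving out a single library therefore raised the log2 fold change in the first case and lowered it in the second. Over all tested genes those fits called 3149 of 22013 and 1 of 22046. Passing or missing the threshold in them is therefore not particular to Egr1.

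Nr4a1 (chromosome 15, 101254269 to 101274795, plus strand) showed the same split of the knockout libraries. It stood at 70.9, 24.2 and 83.1 CPM in knockout replicates 1, 2 and 3, against 37.1, 44.2 and 47.8 CPM in wild type, so that knockout replicate 2 had 0.562 times the wild-type mean and knockout replicates 1 and 3 had 1.65 and 1.93 times. The log2 fold change was 0.47 (SE 0.38, edgeR adjusted p = 0.464). Without knockout replicate 2 it was 0.84 (edgeR adjusted p = 0.0173), past the threshold, and without knockout replicate 3 it was 0.17 (edgeR adjusted p = 0.84). Those fits called 3149 of 22013 and 327 of 22190 tested genes. Ier2, a single-exon gene of a small nuclear protein (chromosome 8, 84661331 to 84662852, minus strand), stood at 4.21, 2.10 and 5.51 CPM in knockout, against 4.90, 5.47 and 4.24 CPM in wild type. Knockout replicate 2 was again the lowest of the 6 libraries, and the groups overlapped (log2 fold change -0.31, SE 0.34, edgeR adjusted p = 0.595). With the trends removed the sign of Ier2 turned to 0.22 (SE 0.26).

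Both feedback genes also had their lowest value in knockout replicate 2. Dusp1 (chromosome 17, 26505590 to 26562128, minus strand) stood at 15.2, 8.99 and 18.5 CPM in knockout replicates 1, 2 and 3, against 11.4, 11.04 and 9.96 CPM in wild type, with the wild-type libraries lying between knockout replicate 2 and the other 2 knockout libraries (log2 fold change 0.40, SE 0.26, edgeR adjusted p = 0.365). Zfp36 (chromosome 7, 28376784 to 28380253, minus strand) stood at 9.21, 3.09 and 6.73 CPM in knockout, against 4.70, 6.59 and 7.89 CPM in wild type. Its group means were nearly equal, at 6.34 ± 3.08 CPM in knockout and 6.39 ± 1.604 CPM in wild type (SD, n = 3 each), and the fitted log2 fold change was -0.01 (SE 0.38, edgeR adjusted p = 0.991). Its sign depended on the scaling and on which library was left out. Without knockout replicate 2 the log2 fold changes were 0.64 for Dusp1 (edgeR adjusted p = 0.0526), 0.32 for Zfp36 (edgeR adjusted p = 0.469) and -0.01 for Ier2 (edgeR adjusted p = 0.99).

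**Figure D2:**
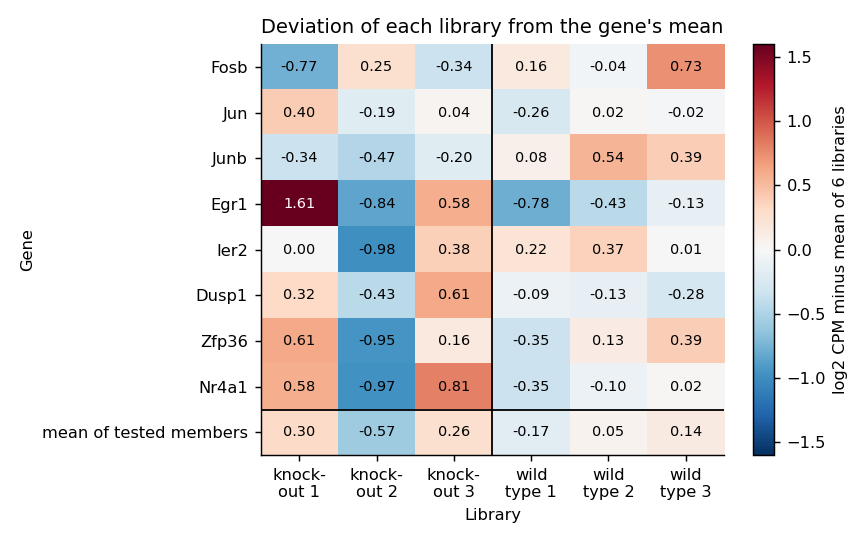
Deviation of each library from the mean of 6 libraries, in log2 CPM, for the 8 tested genes (rows) and for their mean (last row), with knockout libraries in the 3 columns on the left and wild-type libraries on the right. Knockout replicate 2 is at -0.57 in the mean of the members, and knockout replicates 1 and 3 are at 0.30 and 0.26.

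Read across the libraries, the members differed most within the knockout group. In 6 of 8 tested members knockout replicate 2 was the lowest of the 6 libraries, as it was for 19.1% of all tested genes. It was the lowest of the 3 knockout libraries in 7 of 8 members, the exception being Fosb, and in 37.2% of all tested genes. Among the 50 other tested immediate-early genes it was the lowest of the 6 libraries in 25 and the lowest knockout library in 39. Among the 10 stress chaperones these counts were 3 and 4, and among the 10 Sertoli cell markers 3 and 9. It was the lowest knockout library in 2 of 8 Leydig, 2 of 9 macrophage, 2 of 6 fibroblast and 1 of 5 tested blood markers. For endothelial markers this held in 5 of 8, and for peritubular myoid and spermatogonial markers in 4 of 6 each. The differences between these lists were not tested. The standard deviation of log2 CPM was larger in knockout than in wild type for 7 of 8 members, the exception being Junb, and for 56.8% of all tested genes. Its median over the members was 0.62 in knockout and 0.21 in wild type, beside 0.30 in knockout and 0.25 in wild type over all tested genes. The biological coefficient of variation that edgeR estimates per gene was above the trend for genes of its level in 5 of 8 members and 31.4% of all tested genes, and was highest for Egr1, at 0.43 where the trend was 0.25.

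With the GC and length trends of each library removed, the pattern was less uneven. Knockout replicate 2 was then the lowest of the 6 libraries in 3 of 8 members (37.5%) and in 13.4% of all tested genes, and the lowest knockout library in 5 of 8 members (62.5%) and in 34.0% of all tested genes. For Egr1 the values were then 23.6, 5.23 and 11.1 CPM in knockout replicates 1, 2 and 3, against 3.91, 4.47 and 5.34 CPM in wild type. For Nr4a1 they were 77.3, 31.5 and 86.1 CPM in knockout, against 34.4, 37.9 and 40.8 CPM in wild type. Knockout replicate 2 thus remained below both other knockout libraries for these genes. The log2 fold changes became 1.55 (SE 0.46, edgeR adjusted p = 0.108) for Egr1 and 0.79 (SE 0.32, edgeR adjusted p = 0.193) for Nr4a1, and 0.50 for Jun and 0.63 for Dusp1. In this fit 0 of 8 members were called, where only 37 of 21518 tested genes were. At an unadjusted p under 0.05, 4 of 8 members and 22.3% of all tested genes passed this fit. In a fit that removed the trends and left out knockout replicate 2, which was chosen after seeing the data, Egr1 (1.92, edgeR adjusted p = 0.0144), Nr4a1 (1.11, edgeR adjusted p = 0.00592) and Dusp1 (0.83, edgeR adjusted p = 0.0199) were past the threshold, in a setting in which 2963 of 22013 genes (13.5%) were called. Without that library and with the trends kept, the share of all tested genes called was 14.3%.

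**Figure D3:**
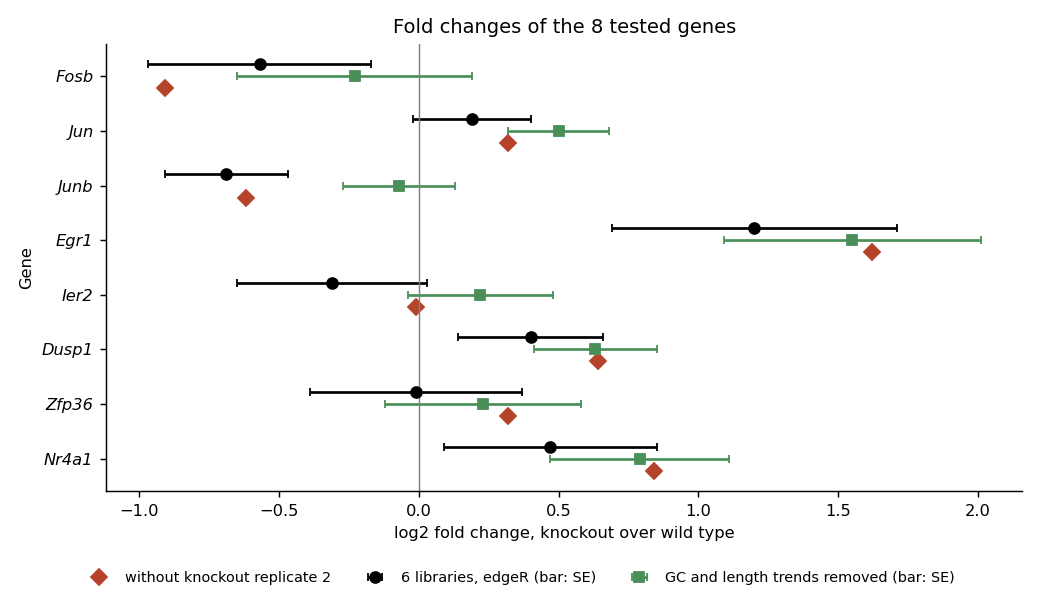
Log2 fold change, knockout over wild type (x axis), of the 8 tested genes (y axis) with all 6 libraries, with the GC and length trends of each library removed, and without knockout replicate 2; bars are standard errors of the first 2 fits. Egr1, Dusp1, Nr4a1 and Jun are above 0 in each fit, and Junb moves from -0.69 to -0.07 when the trends are removed.

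The 8 tested members were GC-rich, with a median of 56.5% in their longest transcript, against 49.0% over all tested genes. Their GC content ran from 54.0% in Dusp1 to 62.6% in Junb. Within the set, the part of GC content in the fold changes was not tested.

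**Figure D4:**
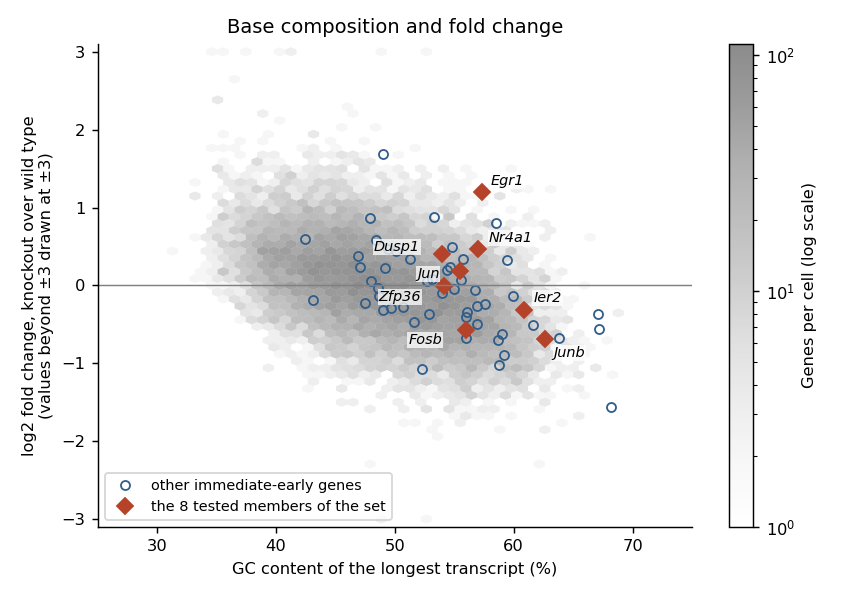
GC content of the longest transcript (x axis, percent) against log2 fold change, knockout over wild type (y axis, values beyond ±3 drawn at ±3), for all tested genes as shaded cells on a log colour scale, with the 8 tested members as diamonds and the other immediate-early genes as circles. Log2 fold changes decline with GC content, and Egr1 lies highest among the 8 members.

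Markers of the other cells of the testis were set beside these levels. Summed Sertoli cell markers, all 10 of 10 with counts in every library, were at 1971, 1298 and 1691 CPM in knockout replicates 1, 2 and 3, against 1134 to 1559 CPM in wild type. Knockout replicate 2 was the lowest knockout library here as in the summed members, and likewise for the summed Leydig, endothelial, peritubular myoid, spermatogonial and spermatid markers. Gene by gene this held for 9 of 10 Sertoli markers but only 2 of 8 Leydig markers, beside 37.2% of all tested genes. It held for 5 of 8 endothelial, 4 of 6 peritubular myoid, 4 of 6 spermatogonial and 3 of 6 spermatid markers. The part of these lists in the result was not tested. The 8 Leydig cell markers summed to 1761, 1160 and 1245 CPM in knockout, against 623 to 1396 CPM in wild type. Macrophage markers, all 9 of 9 detected, were at 122.8, 101.9 and 91.7 CPM in knockout, against 63.1 to 120.2 CPM in wild type, and fibroblast markers, all 6 of 6, were at 166.6, 137.0 and 106.0 CPM in knockout, against 48.0 to 121.2 CPM in wild type. Endothelial markers ran from 50.2 to 61.1 CPM in knockout and from 38.6 to 72.8 CPM in wild type, peritubular myoid markers from 392.9 to 426.6 CPM in knockout and from 383.5 to 413.5 CPM in wild type, and blood markers from 41.1 to 78.5 CPM in knockout and from 62.5 to 132.5 CPM in wild type. Of 8 epididymis markers, 1 had counts in every library, and Lcn5, Lcn8, Lcn9, Rnase9, Adam7 and Crisp1 were at 0 in all 6. Germ cell markers fitted the testis label, since all 6 spermatogonial, all 6 spermatocyte and all 6 spermatid markers had counts in every library. Spermatid markers summed to 9958, 9565 and 11100 CPM in knockout replicates 1, 2 and 3, against 14470 to 16440 CPM in wild type. At an edgeR adjusted p under 0.05, 2 of 6 were lower, where 5.12% of all tested genes were. By gene, 4 of the 6 had a log2 fold change below 0 and 2 above it. At an edgeR unadjusted p under 0.05, 3 were lower and 1 higher. Spermatocyte markers summed to 720.4 to 782.8 CPM in knockout and 677.3 to 692.4 CPM in wild type, and spermatogonial markers to 89.1 to 104.0 CPM in knockout and 83.3 to 104.7 CPM in wild type.

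Other immediate-early genes were taken from a list of 51, of which 50 were tested. None rose and 3 fell, Egr4, Ier5 and Dusp4, where 5.12% of all tested genes fell. At an unadjusted p under 0.05, 2 of the 50 were higher and 5 lower, where 12.1% of all tested genes were higher and 15.0% lower. The median log2 fold change of the list was -0.12. Without knockout replicate 1, wild-type replicate 1 or wild-type replicate 2, 0 genes of the list were called. Those fits called 1 of 22046, 5 of 22167 and 1 of 22148 tested genes, so these counts of 0 say little about the list. Without knockout replicate 3, 1 gene of the list, Egr4, was called, where 327 of 22190 tested genes were. Without knockout replicate 2 there were 5, with Zfp36l1 and Fosl1 higher besides the same 3 lower, where 14.3% of all tested genes were called.

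Egr4, a zinc-finger gene of the EGR family that is known for its role in male germ cell maturation, was lower in knockout. It stood at 4.40, 4.23 and 6.51 CPM in knockout replicates 1, 2 and 3, against 16.2, 13.4 and 15.0 CPM in wild type, and all knockout libraries lay far below the wild-type ones (log2 fold change -1.56, SE 0.23, edgeR adjusted p = 0.0161). Its transcript has 68.2% GC, and with the trends removed the log2 fold change was -0.75 (edgeR adjusted p = 0.108). Ier5, a regulator of the heat shock response in the family of Ier2, fell to 7.39, 8.53 and 9.01 CPM in knockout, against 19.6, 17.3 and 15.8 CPM in wild type (log2 fold change -1.08, SE 0.18, edgeR adjusted p = 0.0176). With 52.3% GC, it kept a log2 fold change of -0.90 with the trends removed (edgeR adjusted p = 0.0575). Dusp4, a nuclear MAP kinase phosphatase related to Dusp1, stood at 23.7, 23.7 and 28.8 CPM in knockout, against 42.5, 40.4 and 39.3 CPM in wild type (log2 fold change -0.68, SE 0.15, edgeR adjusted p = 0.0335), and at -0.34 with the trends removed (edgeR adjusted p = 0.185). Its call was also lost without wild-type replicate 3 (edgeR adjusted p = 0.0791), and those of Dusp4 and Ier5 without knockout replicate 3 (edgeR adjusted p of 0.0593 and 0.0519). Those fits called 425 of 22073 and 327 of 22190 tested genes, and the fit with the trends removed 37 of 21518. Log2 fold changes without these libraries were -0.71 and -0.76 for Dusp4, and -1.12 for Ier5 without knockout replicate 3. Whether Egr4 and Egr1 differed in their response was not tested. The summed spermatid markers were lower in all 3 knockout libraries as well, though 2 of the 6 had a log2 fold change above 0. The part of these markers in the values of Egr4, Ier5 and Dusp4 was not tested.

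The next genes of that list by p did not pass. Arc, a neuronal activity gene that was the most abundant of the 61 immediate-early genes per length, stood at 299.6, 186.8 and 340.8 CPM in knockout, against 427.2, 412.6 and 438.6 CPM in wild type (log2 fold change -0.63, SE 0.21, edgeR adjusted p = 0.0998). Its groups did not overlap, where 18.1% of tested genes lay wholly below in knockout, and knockout replicate 2 was lowest. The log2 fold change of Arc was -0.41 (edgeR adjusted p = 0.0589) without that library and -0.21 (edgeR adjusted p = 0.44) with the trends removed, and scaling by library size alone took it past the threshold (-0.68, edgeR adjusted p = 0.0492). Zfp36l1, an AU-rich element binding protein gene of the Zfp36 family, was at 33.3, 8.73 and 60.6 CPM in knockout, against 4.58, 18.2 and 9.004 CPM in wild type (log2 fold change 1.69, SE 0.66, edgeR adjusted p = 0.143). Its knockout libraries repeated the order seen in Nr4a1, with replicate 2 lowest, and overlapped the wild-type ones. Dusp2 (-0.89, SE 0.33), Pim1 (-0.41, SE 0.18) and Klf6 (0.60, SE 0.24) had edgeR adjusted p values of 0.124, 0.193 and 0.146 beside these log2 fold changes. Removal of the trends left -0.37 for Dusp2, -0.09 for Pim1 and 0.41 for Klf6, and Pim1, whose lowest library was also knockout replicate 2, was at -0.25 without it.

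In level per length, Arc, at 90.2 ± 26.1 in knockout and 139.4 ± 4.27 CPM per 1000 bases in wild type, was followed in wild type by Jund and Klf4, which were chosen for their levels after these were seen. Jund, the Jun family member that is expressed without a stimulus, was at 53.5 ± 20.8 in knockout and 69.0 ± 7.24 in wild type, and Klf4, a Krüppel-like factor gene of postmeiotic germ cells, at 63.8 ± 15.5 in knockout and 54.3 ± 5.58 in wild type (SD, n = 3 each). Nr4a1 ranked 12 of the 61 genes in wild type and Dusp1 23, while Fosb, Fos and Atf3 ranked 56, 58 and 61.

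**Figure D5:**
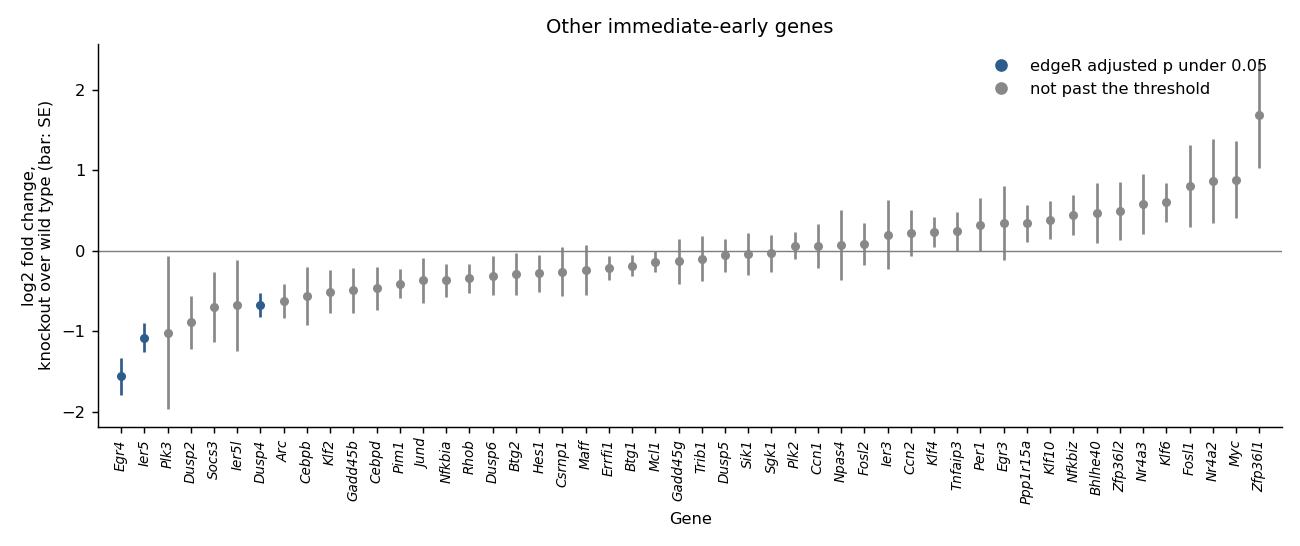
Log2 fold change, knockout over wild type (y axis), with its standard error, of the 50 tested immediate-early genes outside the set (x axis, in order of value), with those past an edgeR adjusted p under 0.05 in blue. Egr4, Ier5 and Dusp4 are the 3 called, all below 0, and Zfp36l1 has the highest value and a wide error.

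Of 30 tested genes that carry signals to the immediate-early promoters, 3 were higher and 3 lower, where 3.11% of all tested genes were higher and 5.12% lower. The 3 with the smallest p were Rps6ka4, a kinase of the MSK family that phosphorylates CREB and histone H3 (-0.98, SE 0.15, edgeR adjusted p = 0.0161), Map2k2, a MAP kinase kinase (-1.02, SE 0.17, edgeR adjusted p = 0.0168), and Mapk8, a Jun N-terminal kinase gene (0.72, SE 0.15, edgeR adjusted p = 0.0268). Rps6ka4 stood at 18.6, 20.7 and 20.0 CPM in knockout, against 40.6, 38.6 and 37.6 CPM in wild type. Map2k2 stood at 78.0, 66.5 and 97.1 CPM in knockout, against 171.3, 158.7 and 160.9 CPM in wild type. Mapk8 stood at 42.1, 35.8 and 40.7 CPM in knockout, against 24.5, 23.0 and 24.5 CPM in wild type. None of these groups overlapped, where 18.1% of tested genes lay wholly below in knockout and 14.6% wholly above. As these genes were picked for a small p, the separation adds little. The lower pair had 60.3% and 60.4% GC and Mapk8 40.1%, and removal of the trends left log2 fold changes of -0.46 for Rps6ka4, -0.56 for Map2k2 and 0.26 for Mapk8, none of them past the threshold. All 3 calls were also lost without knockout replicate 1 (edgeR adjusted p of 0.0906, 0.092 and 0.126), without wild-type replicate 1 (0.0596, 0.0634 and 0.0746) or without wild-type replicate 2 (0.0894, 0.09 and 0.134), and that of Mapk8 without knockout replicate 3 (0.0705) or wild-type replicate 3 (0.0725). Over all tested genes these fits called 1, 5, 1, 327 and 425, in that order, against 1770 with all libraries. The fit with the trends removed called 37. Such losses are therefore not particular to these genes. Without knockout replicate 1, wild-type replicate 1 or wild-type replicate 2, log2 fold changes ran from -0.99 to -0.92 for Rps6ka4. They ran from -1.05 to -0.96 for Map2k2 and from 0.67 to 0.76 for Mapk8. The other called genes, chosen after their values were seen, were Hras (-0.83), Sos1 (1.19) and Braf (0.58). Exons of Rps6ka4, Braf, Atf2, Hspa1a, Zfp36l1, Fosl1, Jund and Pim1 also overlap another annotated gene, so their counts are uncertain as well.

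Of 11 partners of the basic leucine zipper family, 1 rose, Atf2, which pairs with JUN, and 0 fell, beside the same 3.11% and 5.12% of all tested genes. It stood at 98.2, 80.3 and 108.9 CPM in knockout, against 66.2, 55.2 and 52.7 CPM in wild type (log2 fold change 0.72, SE 0.17, edgeR adjusted p = 0.0359). The call was lost with the trends removed (0.35, edgeR adjusted p = 0.317) and without any single library other than knockout replicate 2, at edgeR adjusted p values from 0.072 to 0.152. Over all tested genes the fit with the trends removed called 37, and those without such a library from 1 to 425. The log2 fold change of Atf2 ran from 0.64 to 0.85 without such a library. Atf7 was at 47.7, 13.0 and 34.2 CPM in knockout, against 10.6, 10.99 and 12.3 CPM in wild type (1.49, SE 0.39, edgeR adjusted p = 0.0524), again with replicate 2 the lowest knockout library. Without that library Atf7 was past the threshold (1.86, edgeR adjusted p = 0.0042), where 14.3% of all tested genes were called. With all 6 libraries it was past it in the DESeq2 Wald test (adjusted p = 0.00103), which called 18.3% of its genes. It passed narrowly with scaling by library size alone (edgeR adjusted p = 0.0492) and missed with the trends removed (1.25, edgeR adjusted p = 0.106). Of 16 alternative fits, 6 called it. For Nfe2l2, the regulator of the antioxidant response, the value was 0.68 on the log2 scale (SE 0.22, edgeR adjusted p = 0.0927).

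Stress chaperones, which also respond to handling and temperature, gave 0 calls in 10, where 8.23% of all tested genes were called. At an unadjusted p under 0.05, 0 were higher and 4 lower, beside 12.1% higher and 15.0% lower over all tested genes. Hspa1a, the inducible HSP70 gene, stood at 16.8, 21.7 and 22.7 CPM in knockout, against 33.9, 29.1 and 34.0 CPM in wild type (log2 fold change -0.66, SE 0.18, edgeR adjusted p = 0.0521). Its groups did not overlap, and 18.1% of tested genes lay wholly below in knockout. Without knockout replicate 2 Hspa1a was past the threshold (edgeR adjusted p = 0.0442), where 14.3% of all tested genes were called. With all libraries it was past it in the DESeq2 Wald test (adjusted p = 0.0139) and with a filter of 1 CPM in 3 samples (edgeR adjusted p = 0.0456). Of 16 alternative fits, 3 called it. Hspa1a has a near-identical copy, Hspa1b, so its counts are uncertain. On the log2 scale Dnajb1, a co-chaperone of HSP70, was at -0.55 (SE 0.17, edgeR adjusted p = 0.0803) and Hspb1, a small heat shock protein gene, at -0.67 (SE 0.23, edgeR adjusted p = 0.106). With the trends removed the 3 values were -0.20, -0.35 and -0.08. The DESeq2 Wald test, which called 18.3% of the genes it tested, also called Dnajb1 (adjusted p = 0.0492).

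Among 17355 other tested genes averaging 1 CPM or more, the 5 whose centred log2 CPM over the 6 libraries lay nearest to the mean profile of the members were Ubqln4, Smarcd1, Akna, Camsap1 and Nelfa, at root mean square distances of 0.02, 0.04, 0.04, 0.05 and 0.05. The members themselves lay at distances from 0.20 for Jun to 0.67 for Fosb from their own mean. Ubqln4 stood at 46.7, 25.4 and 45.6 CPM in knockout replicates 1, 2 and 3, against 34.8, 39.1 and 41.9 CPM in wild type. Knockout replicate 2 was the lowest library in all 5, which follows from how they were chosen.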

How the data were processed

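Each deposited file holds raw counts per gene for 1 testis sample, which the authors had not normalized. The submitters' processing notes name Trimmomatic, HISAT2, HTSeq and mm10, without versions; the sources used here give no strand setting, annotation release or multi-mapping rule. Symbols, spans, exon lengths and GC content came from GENCODE M21 (GRCm38), which matched 51633 of 51826 identifiers. Within-group pairs differed by 15.4 to 135.1 chi-square per degree of freedom, so no pair agreed within counting noise; this does not tell repeat preparations of 1 testis from separate animals. Counts were tested with edgeR 4.0.16 (quasi-likelihood, TMM, filterByExpr, R 4.3.3) over all 6 samples, without covariates, with Benjamini-Hochberg adjustment over 21518 genes. SE values come from the fold change and F statistic. Trends were fitted per library with natural splines (5 degrees of freedom) over 12751 genes whose log2 CPM averaged over 2 and entered as offsets. Log2 CPM used a prior count of 2. Alternatives were DESeq2 1.42.0, other scalings and filters, a replicate block, and samples left out. The fits were also run on data simulated from their own estimates, which checks the code and not whether the model holds for these libraries. Members and lists were chosen with earlier results of these data known. Named genes were the 10 members, the 8 smallest p in the list of 51, 3 in each other list, and 5 nearest profiles.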

Additional observations from a re-analysis of the deposited data

How the results depend on the processing

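The count of all called genes, 1770, was 1010 with no filter on low counts, 3275 with the DESeq2 Wald test, 37 with the GC and length offsets and 1 to 3149 with a sample left out. Without knockout replicate 2 and with the offsets, a setting chosen after seeing the data, it was 2963. With a replicate block it was 21, and with the block and the offsets 7. No label says that the numbers pair the samples. Same-numbered samples deviated at correlations of -0.47, -0.12 and -0.14, and no knockout sample matched its own number best. With 3 samples a group, and deviations that also follow GC content, this cannot show whether same-numbered samples share a litter or day. Calls among the members, 0 in the fit to all samples, were 2 with DESeq2 (Junb and Egr1) and 0 to 2 with a sample left out, the 2 being Egr1 and Nr4a1 without knockout replicate 2. They were 3 without that sample and with the offsets. With the replicate block they were 0. Calls among the other immediate-early genes, 3, were 0 with the replicate block, 0 with the GC and length offsets, 0 with both, and 0 to 5 with a sample left out, and 8 without knockout replicate 2 and with the offsets. The median log2 fold change of the members ran from -0.17 to 0.32 in fits without 1 sample. It was 0.54 without knockout replicate 2 and with the offsets, 0.36 with the offsets, 0.03 with the replicate block and 0.33 with both. The cause of these moves was not tested.

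Of 128 values of single members under the alternatives, 13 reversed in sign, all of Ier2 and Zfp36. Ier2 reversed to 0.22 with the offsets, 0.18 with the replicate block and offsets, and 0.43 without knockout replicate 2 and with the offsets. Zfp36 reversed to 0.02 with DESeq2 size factors and with the DESeq2 Wald test, 0.00 with no filter, 0.23 with the offsets, 0.14 with the replicate block and offsets, 0.01 without mitochondrial genes, 0.53 without knockout replicate 2 and with the offsets, and ran from -0.38 to 0.32 with a sample left out. Among other named genes, Pim1 reached 0.00 without knockout replicate 2 and with the offsets. With library size alone, Ubqln4 (-0.03), Nelfa (-0.01) and Camsap1 (0.00) reversed, and with the replicate block Ubqln4 (-0.02) and Nelfa (-0.01). With a sample left out the ranges were -0.12 to 0.26 for Ubqln4, -0.07 to 0.27 for Smarcd1, -0.06 to 0.30 for Akna, -0.09 to 0.25 for Camsap1 and -0.09 to 0.27 for Nelfa. The depth limits Fos and Atf3, which had at most 19 and 11 counts in a library.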
